A study of Mus musculus with 8 samples.

Results

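Genes of glutathione and thioredoxin metabolism and of the defence against oxidative stress were examined in *Hdac3* knockout (KO) and empty vector (EV) cells of a mouse cardiac endothelial cell (MCEC) line. They were chosen by name from the protein-coding genes of the deposited table: glutathione synthesis, transferase and peroxidase genes, peroxiredoxins, thioredoxins, glutaredoxins, superoxide dismutases, catalase, methionine sulfoxide reductases, heme oxygenases, quinone reductases, pentose phosphate enzymes, ferritins, metallothioneins, aldehyde dehydrogenases (with a single exception that the rule names) and aldo-keto reductases. The rule itself used no measured value, though the genes were chosen with earlier results of these data known. It found 82 of the 8278 genes in the table, which holds 7976 protein-coding genes. Bulk RNA-Seq libraries came from 4 samples of MCECs transduced with a lentivirus carrying CRISPR-Cas9 and a guide RNA against *Hdac3*, a histone deacetylase gene, and from 4 samples transduced with the empty lentivirus. Both groups are the same established line, grown in serum-supplemented DMEM, and both had been through lentiviral transduction. In general terms, the study's reporting summary gives technical replicates as typical of its in vitro work, and its methods state independent repeats. No source used here says whether the 4 samples of a group were separate cultures or clones. The p-values therefore measure only the spread between these samples, which may be technical.

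Glutathione and thioredoxin are the main thiol systems that keep a cell reduced. Glutathione is made from glutamate, cysteine and glycine, serves peroxidases and transferases, and is recycled by glutathione reductase. Thioredoxin is recycled by thioredoxin reductase and serves the peroxiredoxins. Both reductases draw on NADPH, which the pentose phosphate pathway supplies. Many of these genes are textbook targets of the transcription factor NRF2 (*Nfe2l2*), which binds the antioxidant response element (ARE) of their promoters and is held in check by KEAP1. Endothelial cells make nitric oxide, which superoxide consumes.

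The table lists only genes whose adjusted p-value in the authors' own comparison was under 0.05, so a gene outside it was not analysed here, and a high share of listed genes passes a test by construction. *Keap1* and *Gpx4*, whose names the rule would match, are not analysed here. Totals ranged from 15775327 to 21262575 reads in EV libraries and from 19356714 to 22255684 in *Hdac3* KO libraries. The targeted gene was lower but not absent: *Hdac3* had normalized counts of 1934, 2067, 2055 and 2137 in EV libraries and 1551, 1458, 1489 and 1524 in *Hdac3* KO libraries, where a normalized count is scaled to a common library size. All 4 *Hdac3* KO libraries were below all EV libraries (log2 fold change −0.45 ± 0.035 SE, adjusted p = 1.04e-13, quasi-likelihood test of edgeR, adjusted over the 8278 genes by the Benjamini-Hochberg method). These counts measure the transcript and not the protein, and check the direction of the labels only. Of 13 endothelial markers, 6 were in the table and 5 of these were lower in *Hdac3* KO MCECs, where 49.6% of all listed genes were lower. Their summed normalized counts were 1851 to 2040 in EV and 1619 to 1734 in *Hdac3* KO libraries. *Pecam1*, a defining endothelial gene, was near 0 in both groups, with at most 1.18 normalized counts in an EV library and 8.20 in a KO library, while *Eng* was at 21.5 and 17.7 FPKM (a read count scaled for gene length and library total). Of 9 fibroblast and mural markers 6 were listed and 5 were lower, against the same 49.6%, led by *Pdgfrb* (log2 fold change −2.29). *Dcn* stood at 351 FPKM in EV and 139 in KO, and *Col1a1*, the exception, at 373 and 404. The summed counts of this list were 53816 to 57737 in EV and 52675 to 55495 in KO libraries. No cardiomyocyte marker of 5 was listed. Of 4 leukocyte markers 1 was listed, *Cd68*, and of 4 epithelial markers 2 were, *Krt8* and *Krt18*. *Cd68*, *Krt8* and *Krt18* were all higher, where 47.1% of all listed genes were higher. The part of these markers in the results on antioxidant genes was not tested. In bulk samples, fewer cells of a type and less RNA per cell cannot be told apart.

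To show what lies upstream of some genes that rose, 6 promoters are printed, 5 of them picked because they hold an ARE core and *Mt1* as the neighbour of *Mt2* without one, each the 250 bases before the start site from RefSeq (GRCm38.p6, the assembly of mm10), written 5′ to 3′ on the gene's strand. Capitals mark matches on either strand to the ARE core TGACNNNGC or to the metal response cores TGCGCNC and TGCACNC. In *Gclm* an ARE core and a metal response core overlap in 1 run of capitals, and in *G6pdx* metal response cores on both strands do. *Txnrd1* (chr10:82858956-82859205, + strand), *Prdx1* (chr4:116685349-116685598, + strand), *Gclm* (chr3:122245307-122245556, + strand), *G6pdx* (chrX:74428881-74429130, − strand) and *Mt2* (chr8:94172368-94172617, + strand) hold an ARE core. *Mt1* (chr8:94178839-94179088, + strand) holds none in its window. *Txnrd1* has 3 windows in RefSeq, and no motif lies in the other two.
Txnrd1: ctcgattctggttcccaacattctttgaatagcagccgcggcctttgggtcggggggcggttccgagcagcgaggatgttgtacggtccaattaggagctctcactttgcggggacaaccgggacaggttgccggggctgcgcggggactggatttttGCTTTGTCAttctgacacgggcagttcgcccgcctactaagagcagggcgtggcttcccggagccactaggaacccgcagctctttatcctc
Prdx1: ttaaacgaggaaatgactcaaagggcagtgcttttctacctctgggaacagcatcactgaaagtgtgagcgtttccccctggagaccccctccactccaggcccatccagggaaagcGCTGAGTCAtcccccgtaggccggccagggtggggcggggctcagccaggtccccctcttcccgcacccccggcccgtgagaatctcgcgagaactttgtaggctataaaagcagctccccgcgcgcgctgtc
Gclm: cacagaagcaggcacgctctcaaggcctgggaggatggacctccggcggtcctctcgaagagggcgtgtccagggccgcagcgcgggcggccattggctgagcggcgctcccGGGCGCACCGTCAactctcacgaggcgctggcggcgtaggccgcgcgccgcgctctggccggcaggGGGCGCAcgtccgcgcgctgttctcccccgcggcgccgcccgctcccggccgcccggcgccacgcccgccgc
G6pdx: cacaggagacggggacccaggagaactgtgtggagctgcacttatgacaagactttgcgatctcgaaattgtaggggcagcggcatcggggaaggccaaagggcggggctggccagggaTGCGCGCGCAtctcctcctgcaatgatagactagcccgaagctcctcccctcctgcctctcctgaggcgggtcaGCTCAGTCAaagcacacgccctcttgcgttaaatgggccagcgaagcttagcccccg
Mt2: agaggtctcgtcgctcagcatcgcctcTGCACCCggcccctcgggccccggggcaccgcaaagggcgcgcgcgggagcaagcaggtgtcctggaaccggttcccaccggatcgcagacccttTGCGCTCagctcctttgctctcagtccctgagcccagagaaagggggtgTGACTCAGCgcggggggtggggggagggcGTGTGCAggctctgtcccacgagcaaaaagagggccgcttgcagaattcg
Mt1: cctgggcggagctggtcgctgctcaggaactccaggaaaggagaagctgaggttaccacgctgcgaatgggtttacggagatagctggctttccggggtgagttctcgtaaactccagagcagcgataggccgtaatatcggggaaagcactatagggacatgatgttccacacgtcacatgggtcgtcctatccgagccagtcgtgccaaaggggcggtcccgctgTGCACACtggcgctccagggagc

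RefSeq promoters were found for 69 of the 82 genes and came to 86 windows, since some genes have several start sites. The genes without an entry are *Akr1b3*, *Aldh2*, *Aldh3a1*, *Aldh3b2*, *Aldh7a1*, *Gclc*, *Gsr*, *Gsta4*, *Hmox1*, *Msra*, *Prdx6*, *Txnl1* and *Txnl4a*. An ARE core lay in 8 of the 48 windows of genes called higher (16.7%) and in 1 of the 36 windows of genes called lower (2.78%, *Mgst1*). Over all 32851 promoters of this length the share was 10.2%. The other higher genes with a core were *Gsta3*, *Gstm5* and *Sod1*. Most windows of higher genes held no core of this spelling, those of *Nqo1*, *Txn1*, *Srxn1*, *Fth1*, *Ftl1*, *Gstp1* and *Pgd* among them. Only TGACNNNGC was searched, and variant spellings were not counted in any of these shares. The windows of *Srxn1* and *Gstp1* hold TGAGTCAGC, which differs from the core only in the letter after TGA. A window without a match may therefore still hold an ARE. A metal response core lay in 20.8% of the windows of higher genes, 13.9% of those of lower genes and 21.4% of all promoters. These motifs were chosen after the values were known. A match is a description of letters, and no binding was measured here.

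More of these genes were higher than lower in *Hdac3* KO MCECs, and all listed genes were close to evenly divided. At an adjusted p-value under 0.01, 49 of the 82 genes were higher in *Hdac3* KO MCECs (59.8%, against 47.1% of all listed genes) and 30 were lower (36.6%, against 49.6%). The other 3, *Gss*, *Gpx1* and *Aldh2*, did not pass. Normalized counts did not overlap between the groups for 48 genes with KO above EV and 30 genes with KO below EV, where the shares over all listed genes were 44.4% and 46.6%. The median log2 fold change was 0.24 over the 82 genes and 0.056 over all listed genes. It was 0.22 over the 82 genes with *Gstk1*, which has no read in EV libraries, computed from 3 counts in each of them. Of the 82 genes, 36 differed by less than 0.5 on the log2 scale. With library totals and no TMM scaling factors, 42 were higher and 30 lower, where 32.3% of all listed genes were higher and 49.8% lower, and *Aldh3a2*, *Gstm1*, *Gstm5*, *Ggta1*, *Cat*, *Txn2* and *Glrx5* no longer passed. With TMM factors, there were beyond 1 on the log2 scale 10 higher genes (4.43% of all listed genes were so) and 4 lower genes (8.36% of all). Few reads underlay *Gstk1*, *Ggt6*, *Akr1b7*, *Aldh1b1*, *Gsta1* and *Akr1c18* among the higher genes and *Aldh1l1* and *Aldh3b2* among the lower.

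**Figure D1:**
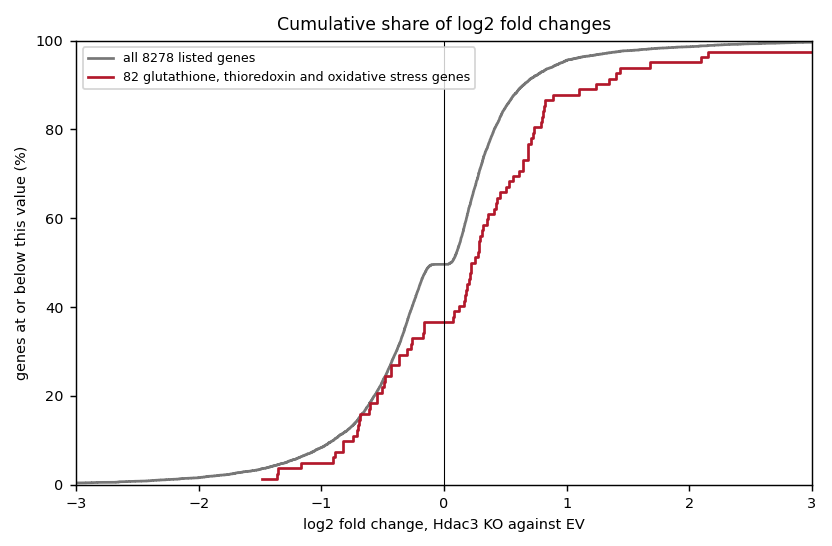
Cumulative share of genes (percent, y axis) at or below each log2 fold change of *Hdac3* KO against EV (x axis), for all 8278 listed genes (grey) and the 82 glutathione, thioredoxin and oxidative stress genes (red). The red line lies to the right of the grey line through the middle of the range, with medians of 0.24 and 0.056, and values beyond 3 in size are outside the axis.

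Higher genes were more frequent at high levels, in this set and in the table. Of the 13 genes with a mean of 100 FPKM or more, 11 were higher and 1, *Mgst1*, was lower, and their median was 0.69 on the log2 scale. Among all 626 listed genes at that level 71.1% were higher and 161 were lower, with a median of 0.24. Of the 43 genes between 10 and 100 FPKM, 27 were higher and 15 lower, with a median of 0.22, and of all 4029 listed genes at that level 55.8% were higher and 1606 were lower, with a median of 0.15. Below 10 FPKM, 11 were higher and 14 lower, with a median of −0.32, and of all 3623 listed genes there 33.2% were higher and 2340 were lower, with a median of −0.37. The 82 genes together took up 1.54%, 1.49%, 1.54% and 1.56% of all reads in the EV libraries and 2.06%, 2.02%, 2.08% and 2.03% in the *Hdac3* KO libraries. Every KO library was above every EV library (1.53% ± 0.026 against 2.05% ± 0.027, SD, n = 4 each). No test of this share is given, since genes are listed only where these same libraries differed. All listed genes together held 84.3% to 84.4% of reads in EV and 85.8% to 85.9% in KO libraries. *Fth1*, *Ftl1*, *Mt1*, *Mt2*, *Aldh1a1* and *Akr1b3* held 60.3% of the reads of the 82 genes in EV and 65.1% in KO libraries.

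**Figure D2:**
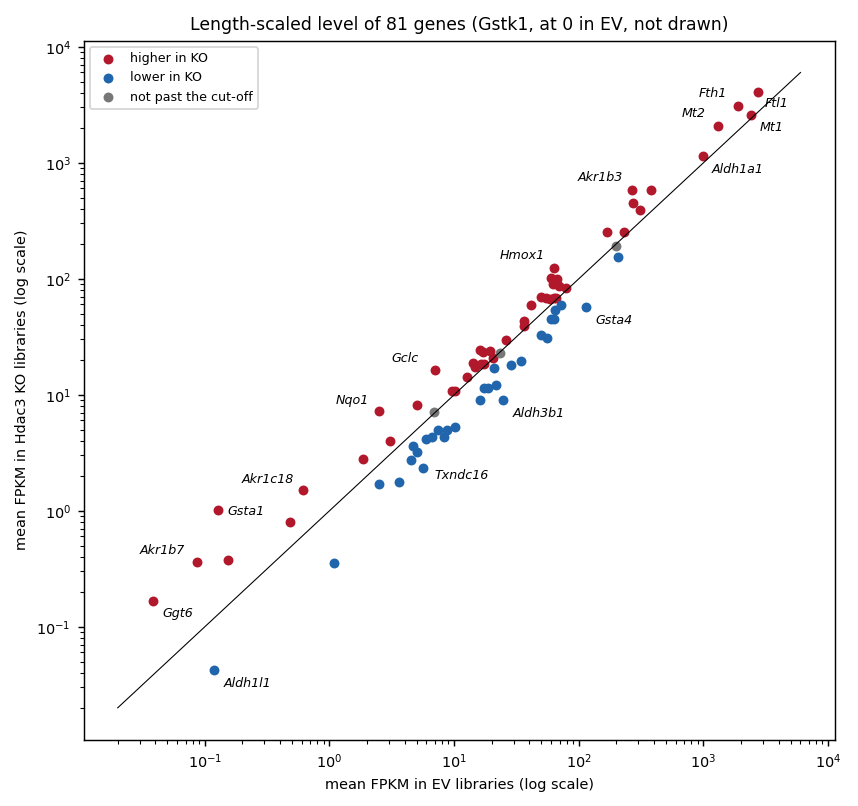
Mean FPKM of each gene in EV libraries (x axis, log scale) against its mean FPKM in *Hdac3* KO libraries (y axis, log scale), n = 4 each, with red for genes called higher, blue for lower and grey for neither, and a line of equal levels. The genes of highest level lie on or above the line and most blue points lie below 100 FPKM.

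Glutathione synthesis was led by its rate-limiting enzyme. Of 6 listed genes for making, recycling and breaking down glutathione, 4 were higher, 1 was lower and 1 did not pass, where 47.1% of all listed genes were higher and 49.6% lower. *Gclc*, which encodes the catalytic subunit of glutamate-cysteine ligase (chr9:77754535-77794485, mm10), had normalized counts of 403, 478, 435 and 478 in EV libraries and 1102, 1120.0, 1197 and 1152 in *Hdac3* KO libraries. All KO libraries lay far above all EV libraries, and the rise was 2.55-fold (log2 fold change 1.35 ± 0.050 SE, adjusted p = 1.07e-22). *Gclm*, the modifier subunit of the same enzyme, had normalized counts of 1594, 1544, 1576 and 1502 in EV libraries and 2183, 2236, 2384 and 2389 in *Hdac3* KO libraries. It rose less (log2 fold change 0.57 ± 0.035 SE, adjusted p = 1.77e-16), and its groups did not overlap either.

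Glutathione synthetase, which adds glycine in the last step, behaved otherwise. *Gss* had normalized counts of 392, 431, 400.4 and 456 in EV libraries and 476, 469.9, 470.5 and 467 in *Hdac3* KO libraries. The groups did not overlap, yet the difference missed the cut-off (log2 fold change 0.16 ± 0.059 SE, adjusted p = 0.0105). It passed without EV library 4 (adjusted p = 0.003), with DESeq2 size factors (adjusted p = 0.0062) and with the filter at 10 counts (adjusted p = 0.0099), and with library totals alone it was 0.042 on the log2 scale and did not pass (adjusted p = 0.5). The EV libraries spread more widely than the KO libraries. *Gsr*, glutathione reductase, had normalized counts of 2898, 2944, 2998 and 2949.5 in EV libraries and 3704, 3534, 3698 and 3456 in *Hdac3* KO libraries. All KO libraries were above all EV libraries by a small margin (log2 fold change 0.29 ± 0.029 SE, adjusted p = 7.80e-11). The gamma-glutamyltransferase family, whose founding members break glutathione down outside the cell, split in direction. *Ggt7* was lower (log2 fold change −0.89 ± 0.11 SE, adjusted p = 5.74e-09). *Ggt6* was close to the floor of detection, with counts of 2, 1, 0 and 2 in EV libraries and 5, 7, 5 and 9 in *Hdac3* KO libraries. It was called higher (log2 fold change 2.15 ± 0.64 SE, adjusted p = 0.00206), a call that was lost without EV library 3.

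The glutathione transferases, which join glutathione to reactive compounds, went both ways. Of 15 listed genes 8 were higher (53.3%) and 7 lower (46.7%), close to the 47.1% and 49.6% of all listed genes, with a median of 0.22 (0.098 with the EV libraries of *Gstk1* at 3 counts each). Among those with more than 100 FPKM in EV, the pi-class *Gstp1* rose (log2 fold change 0.69 ± 0.030 SE, adjusted p = 6.48e-21), while the alpha-class *Gsta4*, known for conjugating the lipid peroxidation product hydroxynonenal, fell (log2 fold change −0.91 ± 0.036 SE, adjusted p = 5.00e-22) and the membrane-bound *Mgst1* fell by less (log2 fold change −0.30). *Gsta4* went from 115 to 56.6 FPKM and *Gstp1* from 169 to 251. The omega-class *Gsto1* rose from 49.4 to 69.6 FPKM and the alpha-class *Gsta3* from 5.07 to 8.21. Both theta-class genes (*Gstt1*, log2 fold change −0.82, and *Gstt3*, −0.55), *Mgst3* (log2 fold change −0.69), *Gstm2* (−0.49) and *Gstz1* (−0.49) were lower. *Mgst2* (log2 fold change 0.82), *Gstm5* (0.29) and *Gstm1* (0.22) were higher.

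The 2 transferases of largest fitted change were barely expressed. *Gsta1* had counts of 4, 0, 1 and 3 in EV libraries and 18, 17, 26 and 15 in *Hdac3* KO libraries. No KO library came down to the EV values (log2 fold change 3.05 ± 0.47 SE, adjusted p = 4.00e-07). Without EV library 1 the log2 fold change was 3.65, and 90.5% of the 50-base words of its exons also occur in another gene, so its reads are uncertain between copies. *Gstk1*, encoding the kappa-class enzyme of mitochondria and peroxisomes, had counts of 0, 0, 0 and 0 in EV libraries and 7, 2, 2 and 3 in *Hdac3* KO libraries. It was called higher (adjusted p = 0.00106), from 14 reads in all, and since no EV library had a read and 3 of the 4 KO libraries were at or under the floor of 3 counts per library, no fold is given. Of the exonic words of *Gstp1* 33.7%, and of those of *Gstm1* 18.9%, are also shared with other genes.

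Of the 4 listed peroxiredoxins, 3 were higher and 1 was lower, against 47.1% and 49.6% of all listed genes, and the gene of their repair enzyme was higher. *Prdx1*, the abundant cytosolic peroxiredoxin, had normalized counts of 12272, 11419, 11495 and 11604 in EV libraries and 19973, 20176, 21502 and 21374 in *Hdac3* KO libraries. The KO libraries were all far above the EV libraries (log2 fold change 0.83 ± 0.028 SE, adjusted p = 5.32e-24), and its level went from 273 to 446 FPKM. *Srxn1*, sulfiredoxin, which repairs over-oxidized peroxiredoxins, had normalized counts of 774, 760.5, 742 and 799.8 in EV libraries and 1006, 949.8, 1024 and 951 in *Hdac3* KO libraries. Its rise was smaller (log2 fold change 0.35 ± 0.044 SE, adjusted p = 5.45e-09), with no overlap. *Prdx6* rose (log2 fold change 0.65) and the mitochondrial *Prdx3* rose slightly (0.22), whereas *Prdx4*, the peroxiredoxin of the endoplasmic reticulum, fell (−0.37).

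Of the 2 listed glutathione peroxidases, 1 was lower and the other did not pass, where 49.6% of all listed genes were lower. *Gpx1*, the main cytosolic form, had normalized counts of 3756, 3732, 3848 and 4038 in EV libraries and 4120.1, 3959, 4032 and 4062 in *Hdac3* KO libraries. The groups overlapped, and the difference did not pass (log2 fold change 0.071 ± 0.029 SE, adjusted p = 0.0187). It passed with DESeq2 (adjusted p = 0.0095), with DESeq2 size factors (adjusted p = 0.0071), without EV library 4 and without KO library 2. Its sign depended on the scaling: it was −0.046 with library totals alone, and its mean FPKM was 197 in EV and 191 in KO. *Gpx8*, of the endoplasmic reticulum, fell from 55.6 to 30.6 FPKM (log2 fold change −0.74 ± 0.048 SE, adjusted p = 5.11e-16).

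The cytosolic thioredoxin pair rose and the inhibitor fell. *Txnrd1*, the cytosolic selenoprotein reductase (chr10:82859206-82897724), had normalized counts of 3782, 3846, 3814 and 3784 in EV libraries and 7059, 7035, 6954 and 7111 in *Hdac3* KO libraries. Replicates lay close together and the groups far apart (log2 fold change 0.89 ± 0.026 SE, adjusted p = 5.96e-26). *Txn1*, thioredoxin itself, had normalized counts of 7649, 7293, 7316 and 7630.2 in EV libraries and 12246, 12034, 12823 and 12195 in *Hdac3* KO libraries. It rose in every KO library (log2 fold change 0.72 ± 0.027 SE, adjusted p = 6.55e-23). *Txnip*, which binds thioredoxin and also curbs glucose uptake, had normalized counts of 1037, 979, 961 and 1004 in EV libraries and 650.4, 665, 644 and 650.5 in *Hdac3* KO libraries. Here every KO library lay below every EV library (log2 fold change −0.61 ± 0.043 SE, adjusted p = 7.70e-15). An exonic stretch of 19.4% of *Txnip* lies opposite another gene, and the use of strand in counting is not given in the sources used here. The mitochondrial partners did not follow as a pair: *Txn2* rose slightly (log2 fold change 0.18) and its reductase *Txnrd2* fell (−0.60). *Txnrd3* was higher (log2 fold change 0.53) at 3.04 FPKM in EV.

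**Figure D3:**
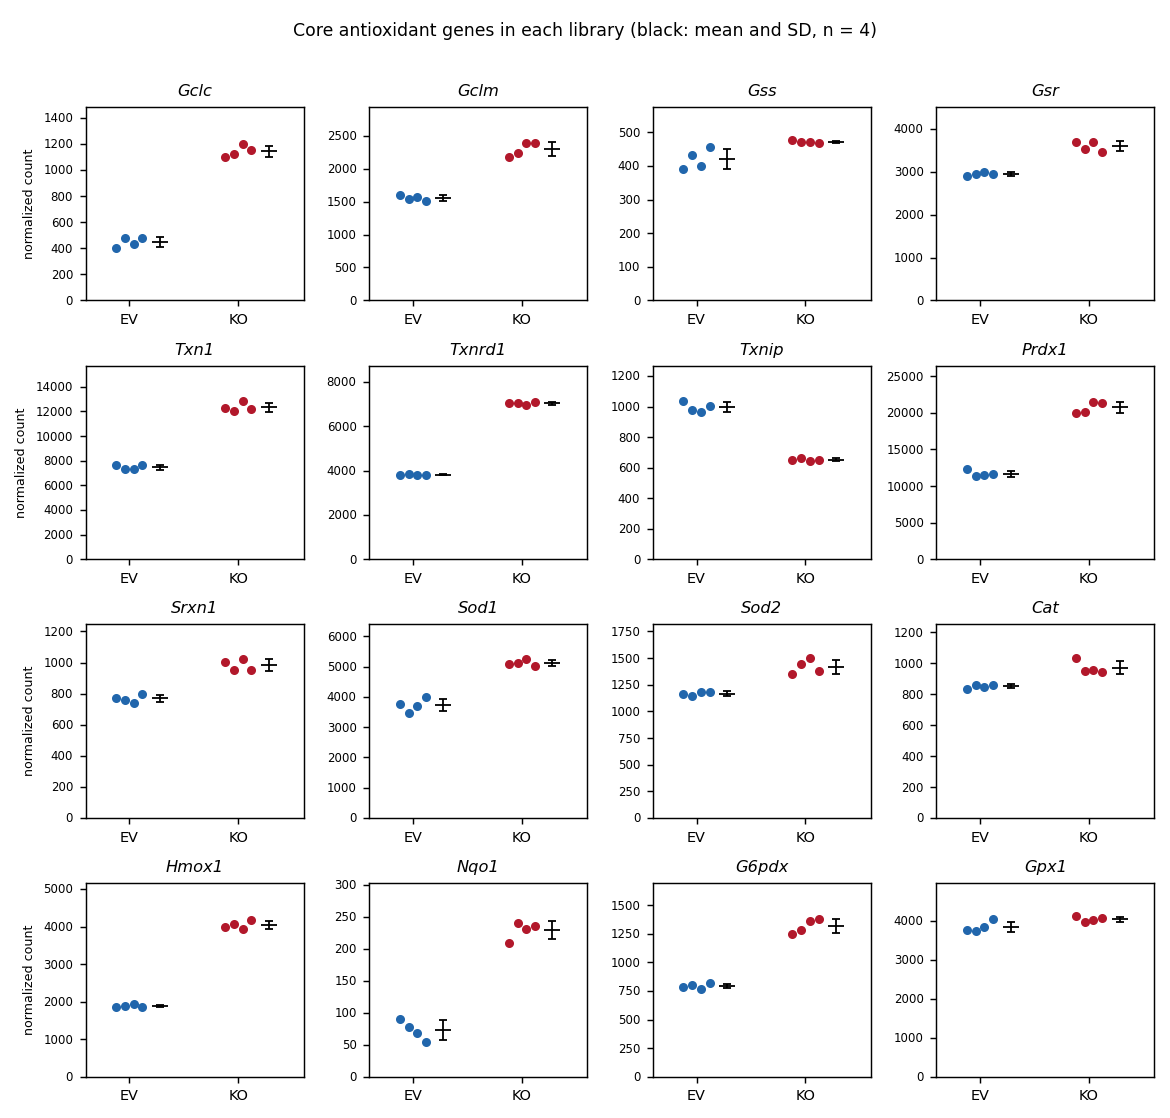
Normalized counts (y axis, from 0) of 16 core genes in each of 4 EV (blue) and 4 *Hdac3* KO (red) libraries, with the mean and SD in black. Points of the groups do not overlap for 15 of the genes, *Txnip* is the only one drawn with KO below EV, and the points of *Gpx1* overlap.

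Proteins with a thioredoxin fold but other tasks split 5 higher and 4 lower (55.6% and 44.4%), close to the 47.1% and 49.6% of all listed genes. *Txndc16*, of the endoplasmic reticulum, changed most and had normalized counts of 441, 426, 430.5 and 423 in EV libraries and 179, 175, 223 and 188 in *Hdac3* KO libraries. All KO libraries were under the EV libraries by more than the spread within groups (log2 fold change −1.16 ± 0.074 SE, adjusted p = 3.08e-16). *Txndc17* (log2 fold change −0.27), the mitochondrial glutaredoxin *Glrx2* (−0.26) and *Txndc12* (−0.16) were lower. The spliceosomal *Txnl4a* (log2 fold change 0.50), the iron-sulfur glutaredoxin *Glrx3* (0.43), the proteasome-associated *Txnl1* (0.43), *Txndc9* (0.41) and the mitochondrial *Glrx5* (0.17) were higher.

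Both listed superoxide dismutases and catalase rose by small amounts, where 47.1% of all listed genes were higher. *Sod1*, the cytosolic copper-zinc enzyme, had normalized counts of 3754, 3484, 3688 and 3984 in EV libraries and 5097, 5109, 5247 and 5026 in *Hdac3* KO libraries. No KO library reached down to the EV range (log2 fold change 0.46 ± 0.031 SE, adjusted p = 2.49e-15). *Sod2*, the mitochondrial manganese enzyme, had normalized counts of 1159, 1142, 1187 and 1180.3 in EV libraries and 1350.0, 1443, 1497 and 1376 in *Hdac3* KO libraries. It was also higher in every KO library (log2 fold change 0.28 ± 0.038 SE, adjusted p = 4.57e-08), with 21% of its exonic words found elsewhere in the annotation. *Cat*, peroxisomal catalase, had normalized counts of 835, 861, 849 and 859 in EV libraries and 1033, 951, 955 and 945 in *Hdac3* KO libraries. Its rise (log2 fold change 0.19 ± 0.042 SE, adjusted p = 0.000121) was the least of the group, KO library 1 stood above the other KO libraries, and with library totals alone it was 0.071 and did not pass (adjusted p = 0.12). Both listed methionine sulfoxide reductases, which repair oxidized methionine, were lower, as were 49.6% of all listed genes: *Msrb3* (log2 fold change −0.70 ± 0.037 SE, adjusted p = 1.67e-18) and *Msra* (log2 fold change −0.43), whose call was lost with DESeq2, with adjustment over 30000 genes, and without EV library 1, KO library 1 or KO library 3.

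*Hmox1* and *Nqo1*, the inducible heme and quinone enzymes, rose while their relatives *Hmox2* and *Nqo2* fell. *Hmox1*, inducible heme oxygenase (chr8:75093591-75100596), had normalized counts of 1859, 1883, 1939.5 and 1853 in EV libraries and 3984, 4075, 3944 and 4181 in *Hdac3* KO libraries. The KO libraries were at 2.15 times the EV level with tight replicates (log2 fold change 1.10 ± 0.030 SE, adjusted p = 1.11e-26). *Hmox2*, the constitutive form, was slightly lower (log2 fold change −0.17), lost its call without EV library 3, and has 40.2% of its exonic bases opposite another gene. *Nqo1*, the quinone reductase often read as an NRF2 reporter, had normalized counts of 91.0, 77.4, 67.6 and 54.7 in EV libraries and 208, 240.4, 231 and 235 in *Hdac3* KO libraries. Every KO library was far above every EV library (log2 fold change 1.68 ± 0.11 SE, adjusted p = 1.86e-15). It stayed at a low level, 2.50 FPKM in EV and 7.25 in KO. *Nqo2*, which uses another electron donor, was lower (log2 fold change −0.37).

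All 3 listed pentose phosphate enzymes rose, where 47.1% of all listed genes were higher. *G6pdx*, glucose-6-phosphate dehydrogenase, the first and NADPH-yielding step, had normalized counts of 784, 805, 768 and 818 in EV libraries and 1253, 1286, 1362 and 1380.3 in *Hdac3* KO libraries. Its groups were well apart (log2 fold change 0.73 ± 0.042 SE, adjusted p = 1.67e-17). *Pgd*, the second NADPH-yielding enzyme, rose from 41.6 to 59.8 FPKM (log2 fold change 0.64 ± 0.029 SE, adjusted p = 3.14e-20), and *Tkt*, transketolase of the non-oxidative branch, rose least (log2 fold change 0.36).

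Ferritins and metallothioneins had the highest FPKM of the set in EV libraries and all 4 rose, again against 47.1% of all listed genes. *Fth1*, the heavy chain of ferritin that oxidizes and stores iron, had normalized counts of 30748, 29870.2, 30809.9 and 32268 in EV libraries and 54451, 52598, 54543 and 53374 in *Hdac3* KO libraries. *Ftl1*, the light chain, had normalized counts of 48837, 48854, 49592 and 50659 in EV libraries and 80112, 78804, 80605 and 78722 in *Hdac3* KO libraries. Both chains were higher in every KO library (log2 fold change 0.80 ± 0.025 SE, adjusted p = 7.86e-25 for *Fth1* and log2 fold change 0.69 ± 0.023 SE, adjusted p = 7.31e-24 for *Ftl1*). Of the exonic words of *Ftl1*, 50.9% recur in other genes, mainly a pseudogene, so its reads are uncertain between copies.

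The metallothioneins, small cysteine-rich proteins that bind zinc and copper and quench radicals, lie side by side on chromosome 8 and rose unequally. *Mt2* had normalized counts of 13642, 12865, 13555 and 14291 in EV libraries and 23662, 23489, 24159 and 22576 in *Hdac3* KO libraries. *Mt1* had normalized counts of 24229, 23271, 24599.5 and 25196 in EV libraries and 28782, 28632, 29124 and 26837 in *Hdac3* KO libraries. Neither overlapped between groups, and the difference was 0.79 ± 0.028 (SE) for *Mt2* and 0.22 ± 0.027 for *Mt1* on the log2 scale. The difference between the genes was not tested. In the windows printed above, that of *Mt2* has an ARE core that the window of *Mt1* lacks, and 3 metal response cores against 1. Each window ends at the annotated start site, and bases beyond it were not searched. The contrast is therefore one of these windows and not of the whole promoters. Of the exonic bases of *Mt2*, 73.5% lie opposite another annotated gene.

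**Figure D4:**
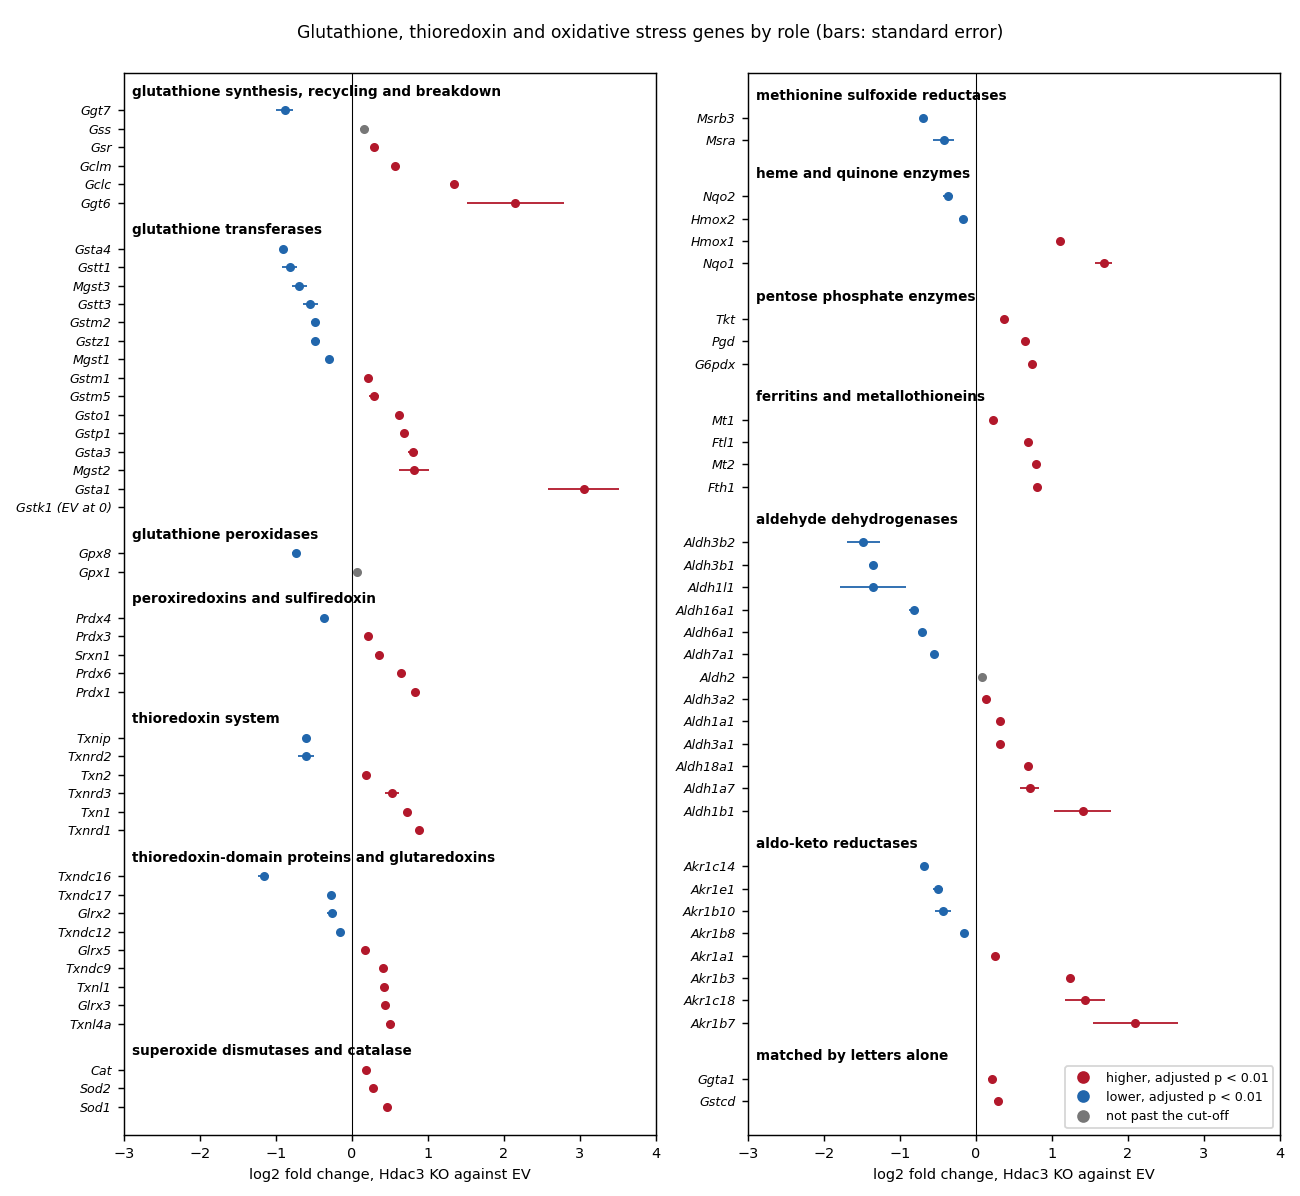
Log2 fold change of *Hdac3* KO against EV (x axis) with its standard error (bars) for each gene, ordered by role, in red where called higher, blue where called lower and grey otherwise. *Gstk1* is named without a point because its EV libraries are at 0. Pentose phosphate enzymes, ferritins and metallothioneins, and superoxide dismutases with catalase lie to the right of 0, both methionine sulfoxide reductases lie to the left, and the large enzyme families span it.

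Aldehyde dehydrogenases, which oxidize reactive aldehydes and also serve amino acid, folate and retinoid metabolism, were split evenly, 6 higher and 6 lower of 13 (46.2% each way, close to the 47.1% and 49.6% of all listed genes). *Aldh3b1*, which acts on medium and long-chain aldehydes, had normalized counts of 830.4, 914, 896 and 848 in EV libraries and 363, 317, 343 and 336 in *Hdac3* KO libraries. It fell to 0.39 of the EV level (log2 fold change −1.36 ± 0.054 SE, adjusted p = 6.11e-22). Its neighbour on chromosome 19, *Aldh3b2*, had normalized counts of 37.8, 40.9, 45.8 and 48.5 in EV libraries and 14.7, 11.8, 21.6 and 14.0 in *Hdac3* KO libraries. It fell too, at 1.08 FPKM in EV (log2 fold change −1.48 ± 0.22 SE, adjusted p = 2.25e-07), and 24.2% of its exonic words are shared with other genes. *Aldh16a1* (log2 fold change −0.82), *Aldh6a1* of valine breakdown (−0.71) and *Aldh7a1* of lysine breakdown (−0.55) were lower too.

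Those that rose included the one of highest FPKM. *Aldh1a1*, a retinaldehyde dehydrogenase, went from 993 to 1135 FPKM (log2 fold change 0.31 ± 0.023 SE, adjusted p = 3.45e-14). *Aldh18a1*, which makes the precursor of proline, rose from 66.6 to 98.9 FPKM (log2 fold change 0.69 ± 0.028 SE, adjusted p = 8.58e-22). *Aldh1a7* (log2 fold change 0.71), *Aldh3a1* (0.32) and *Aldh3a2* (0.12) were higher, the last with overlapping groups and a call that was lost with adjustment over 30000 genes and without EV library 3 or KO library 4. Mitochondrial *Aldh2*, known for acetaldehyde, did not pass (log2 fold change 0.080 ± 0.036 SE, adjusted p = 0.0336), and with library totals alone its sign was reversed.

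A further 2 of this family had few reads. *Aldh1l1*, a folate enzyme, had counts of 6, 10, 9 and 11 in EV libraries and 3, 4, 5 and 3 in *Hdac3* KO libraries. It was lower (log2 fold change −1.36 ± 0.43 SE, adjusted p = 0.00399), but the call was lost with DESeq2 (adjusted p = 0.017), with adjustment over 30000 genes, and without EV library 2, EV library 4 or KO library 4. *Aldh1b1* had counts of 9, 5, 4 and 7 in EV libraries and 25, 22, 9 and 17 in *Hdac3* KO libraries. It was called higher (log2 fold change 1.41 ± 0.37 SE, adjusted p = 0.000794) although KO library 3 fell within the EV range.

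Of 8 listed aldo-keto reductases 4 were higher and 4 lower, with a median of 0.046 on the log2 scale. Among all listed genes 47.1% were higher and 49.6% lower. Aldose reductase had the highest FPKM of the family, while *Akr1b7* and *Akr1c18*, with few reads, had larger log2 fold changes. *Akr1b3*, which reduces glucose to sorbitol with NADPH and also detoxifies aldehydes (chr6:34303934-34317497), had normalized counts of 15967, 15769, 16549 and 16576 in EV libraries and 38759.5, 37965, 38361 and 37945 in *Hdac3* KO libraries. It rose 2.36-fold, with replicates close together (log2 fold change 1.24 ± 0.025 SE, adjusted p = 1.20e-30), from 266 to 579 FPKM. The 3 genes next to it on chromosome 6, all of the same subfamily, went their own ways: *Akr1b8* (log2 fold change −0.16) and *Akr1b10* (−0.44) were lower and *Akr1b7* was higher. *Akr1b7* had counts of 2, 1, 3 and 2 in EV libraries and 14, 4, 14 and 7 in *Hdac3* KO libraries. Every KO library had more reads than any EV library, at few reads (log2 fold change 2.10 ± 0.56 SE, adjusted p = 0.00076), and 27.2% of its exonic bases lie opposite another gene.

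On chromosome 13, too, neighbours moved apart. *Akr1c18*, which inactivates progesterone, had counts of 18, 9, 13 and 12 in EV libraries and 33, 33, 56 and 32 in *Hdac3* KO libraries. It was higher (log2 fold change 1.43 ± 0.26 SE, adjusted p = 7.93e-06), while the more abundant *Akr1c14*, a steroid reductase, fell from 34.1 to 19.5 FPKM (log2 fold change −0.69 ± 0.038 SE, adjusted p = 4.66e-18). *Akr1e1* was lower (log2 fold change −0.50), and *Akr1a1*, an aldehyde reductase at 230 FPKM in EV, was higher (0.25). The name rule also took in *Ggta1*, a galactosyltransferase, and *Gstcd*, a protein with a transferase-like domain, and both were slightly higher (log2 fold change 0.21 and 0.29).

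Beyond these families, lists written from textbook membership were read in the same fit. Of 16 regulators of NRF2, 12 were listed, 9 higher and 3 lower, where 47.1% of all listed genes were higher and 49.6% lower. Their median was 0.24 on the log2 scale, and 9 of the 12 differed by less than 0.5. *Nfe2l2*, NRF2 itself, had normalized counts of 2027, 2109, 2189 and 2113 in EV libraries and 3456, 3249, 3434 and 3446 in *Hdac3* KO libraries. It rose without overlap (log2 fold change 0.69 ± 0.031 SE, adjusted p = 2.74e-20). *Sqstm1*, the autophagy receptor that binds KEAP1, had normalized counts of 12752, 12469, 12708 and 13146 in EV libraries and 25621, 25505, 26072 and 24950.1 in *Hdac3* KO libraries. Its groups were also far apart (log2 fold change 0.9997 ± 0.025 SE, adjusted p = 8.07e-28). The repressors that compete for the ARE were lower, *Bach1* by a little (log2 fold change −0.29) and the scarce *Bach2* by more (−1.21), and *Mafk*, a small partner protein, was higher (0.42). *Cul3*, a subunit of the ligase that marks NRF2 for breakdown, was higher too (log2 fold change 0.30), and *Dpp3*, which competes with NRF2 for KEAP1, was lower (−0.26).

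Of 23 NRF2 targets outside the name rule, 14 were listed, 11 higher and 3 lower, and their median was 0.95, beside 47.1% higher, 49.6% lower and a median of 0.056 over all listed genes. Both chains of the cystine importer that feeds glutathione synthesis rose, *Slc7a11* (log2 fold change 1.37 ± 0.066 SE, adjusted p = 1.90e-19) and *Slc3a2* (log2 fold change 0.96 ± 0.026 SE, adjusted p = 1.05e-26). *Osgin1* (log2 fold change 1.54), the carbonyl reductase gene *Cbr3* (1.70), the exporter genes *Abcc1* (0.94) and *Abcc4* (1.25) and the NADPH-yielding *Me1* (0.64) were higher, while *Idh1* (−0.30), *Slc48a1* (−0.18) and *Fech* (−0.15) were lower.

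Of 9 iron handling genes, 7 were listed, 4 higher, 2 lower and 1 not past the cut-off, with a median of 0.13 on the log2 scale, where 47.1% of all listed genes were higher and 49.6% lower. *Tfrc*, the transferrin receptor that brings iron in, had normalized counts of 6922, 6680.2, 6446 and 6385 in EV libraries and 16015, 15914, 16866 and 17522 in *Hdac3* KO libraries. Like both ferritin chains, it was higher in every KO library (log2 fold change 1.33 ± 0.030 SE, adjusted p = 6.18e-29). The iron exporter gene *Slc40a1* (log2 fold change −0.68) and the iron reductase gene *Steap3* (−1.44) were lower. Of 14 sources of superoxide and hydrogen peroxide only *Xdh* (log2 fold change −0.42) and *Maoa*, which did not pass, were listed. Of 9 sestrins and related stress proteins, 4 were listed, 2 higher and 2 lower, with a median of −0.27 on the log2 scale. *Sesn2* (log2 fold change 1.26) and *Oxsr1* (0.26) were higher and *Sesn1* (−0.81) and *Sesn3* (−0.84) were lower.

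**Figure D5:**
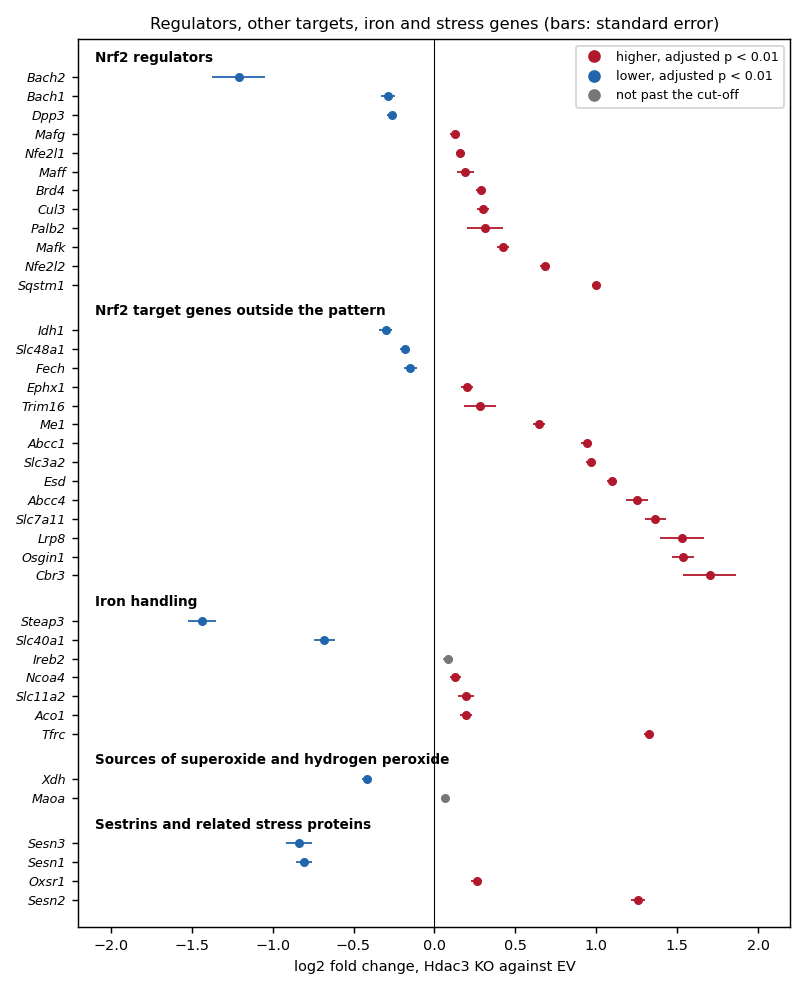
Log2 fold change of *Hdac3* KO against EV (x axis) with its standard error (bars) for the listed NRF2 regulators, NRF2 targets outside the name rule, iron handling genes, sources of superoxide and peroxide, and sestrins with related proteins, in red where higher, blue where lower and grey where not past the cut-off. Most NRF2 targets lie right of 0, up to 1.70 for *Cbr3*, and *Tfrc* and *Steap3* lie at opposite ends of the iron genes.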

How the data were processed

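Bulk RNA-Seq of 4 *Hdac3* KO and 4 EV samples of MCECs was analysed, with groups taken from the sample titles. The authors used tophat2 and bowtie2 for alignment to the mm10 genome, and the submitters' processing notes also name CASAVA and DESeq 1.6.3. The study's methods name both the cufflinks suite and DESeq2 for differential expression, and the program that produced the deposited whole-number counts is not given in the sources used here. The deposited counts are whole, unscaled numbers of reads for each gene. To obtain FPKM, the authors divided each count by gene length and library total. The authors also deposited group means of size-factor-scaled counts (a signal), log2 fold changes, and p-values with their adjustment, and these were used only to establish that all 8278 listed genes have an adjusted p-value under 0.05.

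Library totals were recovered from count, length and FPKM (15775327 to 22255684 reads, of which the listed genes held 84.3% to 85.9%) and scaled with TMM factors. All listed genes were tested with edgeR 4.0.16 in R 4.3.3 (quasi-likelihood test, Benjamini-Hochberg adjustment over 8278 genes, cut-off 0.01, no filter, log2 values with a prior count of 0.125). A normalized count is a count over the relative size of its library, and 3 counts per library were taken as the floor. Standard errors include the spread between libraries of a group, and the reads carry no molecular identifiers. On simulated counts with 200 of 8278 genes changed, edgeR recovered 189 with 2 false calls and DESeq2 recovered 184 with 0. The simulation had few changed genes and no prior selection. In the data the genes were preselected, and 4107 were called lower and 3895 higher. Its false-call rate therefore does not carry over to the data. Libraries of a group differed by more than sampling noise. Same-numbered libraries did not deviate together (mean correlation −0.021 over 7183 genes), so the numbers were not used as pairs. Shared and opposite-strand sequence was counted in 50-base words and exons of GENCODE M21 (mm10), which holds all 82 gene IDs.

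Among the 82 genes, values in every library are printed for those past an absolute log2 fold change of 1 and for a fixed core list, and the largest change of each role is named. The genes and lists were chosen with earlier results of these data known. Alternatives were DESeq2 1.42.0, its size factors, totals without TMM, a filter at 10 counts, a replicate block, leaving out each library, adjustment over 30000 genes and other cut-offs. Figures were drawn with matplotlib 3.10.9.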

Additional observations from a re-analysis of the deposited data

Results flagged for a closer look

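In *Cat*, KO library 1 stood apart from the other 3 KO libraries, with 1033 normalized counts against 945 to 955. Its gap to the nearest of them was 0.889 of the range of the group (Dixon's test for 4 libraries at the 95% level). Of 61 groups examined in this way 1 was picked out, where chance gives about 3.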

How the results depend on the processing

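For the genes of the set printed with every library, 384 of 398 values under the alternatives kept their direction and side of the cut-off. This tally leaves out the adjustment over 30000 genes, the other cut-offs and the remaining genes of the set. The depth limits *Gstk1*, *Gsta1*, *Ggt6*, *Akr1b7*, *Aldh1b1* and *Aldh1l1*, which have few reads. At an adjusted p under 0.05, 4129 listed genes were higher and 4107 lower. With an added requirement of a log2 fold change over 0.5, the listed genes called were 1935 lower and 1249 higher, and those of the glutathione, thioredoxin and oxidative stress set 18 lower and 28 higher. With library totals and no TMM factors, the median over all listed genes shifted by −0.12 (from 0.056 to −0.062) and that over the 82 genes became 0.12. This change of scaling moves nearly all genes by the same amount. The 0.18 by which the set stood above all listed genes was therefore bound to stay. Under that scaling *Gpx1* was reversed (−0.046, adjusted p = 0.13), as was *Aldh2*, neither called, and 7 calls were lost (*Aldh3a2*, *Gstm1*, *Gstm5*, *Ggta1*, *Cat*, *Txn2*, *Glrx5*). With the filter at 10 counts, 77 of the genes were left and their median was 0.22, which was 0.16 above that of all genes left. With DESeq2, *Aldh1l1* and *Msra* were lost and *Gpx1* was called. With adjustment over 30000 genes, *Aldh1l1*, *Aldh3a2* and *Msra* were lost. Leaving out single libraries lost at most 3 calls of the 82 at a time and reversed none. With the replicate number as a replicate block, 49 were higher and 30 lower, and no call among the 82 changed.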
